A study of Homo sapiens with 36 samples.

Results

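TRRAP, MTOR, ATM, ATR and PRKDC encode 5 members of the phosphatidylinositol 3-kinase-related kinase (PIKK) family. Their transcripts were examined in 18 lists of PAR-CLIP clusters, which are short stretches of RNA crosslinked to protein. A cluster was counted for a gene when its midpoint lay on the gene's strand between the start and the end of the gene in GENCODE 44. The 5 genes held 817 of the 278185 clusters, against 9830 protein-coding genes with at least 1 cluster. The genes were chosen by family and by their cluster numbers in these lists, so cluster numbers per gene are given as a description and were not tested.

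All 5 genes are long and have many exons. In GRCh38 coordinates TRRAP (ENSG00000196367) lies on chromosome 7 from 98877933 to 99050831 on the plus strand, and its canonical isoform has 73 exons and 12675 spliced nt. MTOR (ENSG00000198793) lies on chromosome 1 from 11106535 to 11262556 on the minus strand, with 58 exons and 8721 nt. ATM (ENSG00000149311) lies on chromosome 11 from 108223044 to 108369102 on the plus strand, with 63 exons and 12915 nt. ATR (ENSG00000175054) lies on chromosome 3 from 142449007 to 142578733 on the minus strand, with 47 exons and 8158 nt. PRKDC (ENSG00000253729) lies on chromosome 8 from 47773111 to 47960178 on the minus strand, with 86 exons and 13459 nt.

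PIKK proteins are very large, with long helical repeats before a C-terminal kinase domain. TRRAP keeps the fold of this domain without kinase activity and serves as a scaffold of histone acetyltransferase complexes, mTOR controls growth in response to nutrients, ATM and DNA-PKcs (the product of PRKDC) respond to DNA double-strand breaks, and ATR responds to replication stress. SCAF4 and SCAF8 are RNA-binding proteins that contact the C-terminal domain of RNA polymerase II, and the study asked where they contact nascent transcripts.

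The cells were HEK293 Flp-In T-REx, a human embryonic kidney line with a site for inserting an inducible gene. Parental cells without a tagged protein were compared with lines expressing FLAG-SCAF4 or FLAG-SCAF8 from a doxycycline-inducible promoter, induced overnight (100 ng/mL in the labels), and no line carried a deletion. The labels give no doxycycline dose for the parental cells. The study's methods describe overnight doxycycline for the parental cells too, at a higher dose than the labels give. All cells received 4-thiouridine (100 µM overnight and a pulse of 500 µM for 2 h) and 365 nm light at 2000 J/m2, and a FLAG immunoprecipitation (IP) and its input were sequenced in 3 replicates per line, each list joining a soluble and a chromatin library. Each of the 6 conditions thus had 3 lists, and all numbers below are relative to the clusters of a list, because the lists hold no reads and the sequencing depth behind them is unknown.

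The lists differed widely in size. FLAG-SCAF4 IP lists held 18991 to 54404 clusters and FLAG-SCAF8 IP lists 18287 to 41502, whereas input lists held 4567 to 12493 and parental IP lists 9638, 2314 and 1621. Parental IP replicates 2 and 3 had only 3 and 4 clusters in the 5 genes. The transcripts of the tagged proteins followed the labels: SCAF4 itself held 16 to 17 clusters in the inputs of the FLAG-SCAF4 line and 3 to 4 in those of the FLAG-SCAF8 line, and SCAF8 held 1 to 7 and 18 to 20.

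TRRAP held more clusters per 10000 in both SCAF IPs than in their inputs. In FLAG-SCAF4 IP it held 18, 63 and 44 clusters in replicates 1 to 3, which was 9.48, 11.6 and 13.0 per 10000 clusters of the list. In the inputs of the same line it held 3, 1 and 3 clusters, or 2.56, 1.96 and 6.26 per 10000. The ranges did not overlap, and the means differed 3.16-fold (11.3 ± 1.75 against 3.59 ± 2.33 per 10000, SD, n = 3). In FLAG-SCAF8 IP it held 17, 11 and 27 clusters (6.75, 6.02 and 6.51 per 10000) against 1, 2 and 3 in the matching inputs (1.09, 1.93 and 3.33 per 10000), again without overlap and with a ratio of means of 3.03. On the scale of log2(clusters per 10000) the FLAG-SCAF8 difference was 1.74, and 0.89 when only the higher-scoring clusters of each list were kept. The level of RNA in these cells was not measured here, so binding per transcript and the abundance of the transcript cannot be told apart.

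The parental IP, which shows what the FLAG resin retains without a tagged protein, also contained TRRAP RNA. It held 4, 2 and 1 TRRAP clusters, or 4.15, 8.64 and 6.17 per 10000. FLAG-SCAF4 IP lay above all 3 of these lists and FLAG-SCAF8 IP (mean 6.42 per 10000) lay within their range (mean 6.32). FLAG-SCAF4 IP was also above FLAG-SCAF8 IP in every pair of lists, with a ratio of means of 1.77. The parental inputs gave 2.40, 4.38 and 3.94 per 10000, which overlapped with the inputs of both tagged lines.

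**Figure D1:**
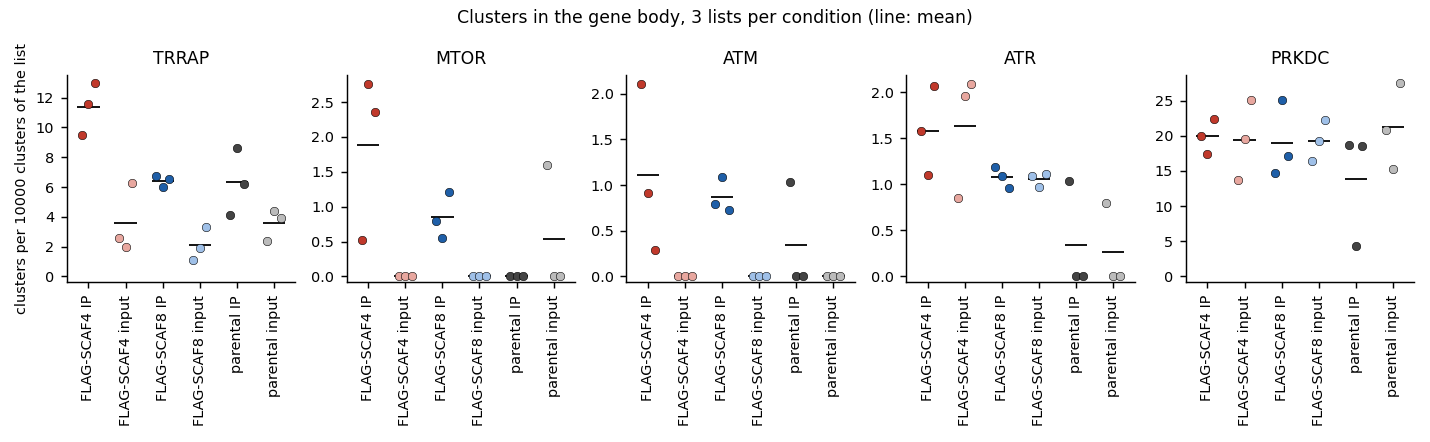
Clusters in each gene body per 10000 clusters of the list (y axis, a separate scale per gene) for the 6 conditions; each point is 1 list and each line is the mean of 3 lists. TRRAP lies higher in both SCAF IPs than in their inputs, PRKDC overlaps between all conditions, and MTOR and ATM are at 0 in the inputs of both tagged lines.

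Clusters were spread along most of the TRRAP transcript. Of its 73 exons, 52 were overlapped by a cluster in at least 1 of the 6 SCAF IP lists, 28 of them in both FLAG-SCAF4 and FLAG-SCAF8 IP. No exon had clusters in FLAG-SCAF8 IP alone, while 10 exons had them in at least 2 FLAG-SCAF4 IP lists and no FLAG-SCAF8 IP list, with 125 FLAG-SCAF4 and 55 FLAG-SCAF8 clusters in the gene. Internal exons with a cluster had a median length of 185 nt and those without had 103 nt. A longer exon is more readily overlapped, so no preference is read from this. Midpoints of exonic clusters lay from 5.98% to 98.2% of the spliced length, with a median of 47.3%.

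In TRRAP, 8 exons (15, 17, 20, 21, 30, 63, 69 and 73) had clusters in at least 5 of the 6 SCAF IP lists, in no parental IP list and in at most 1 of the 9 inputs. Exons 15 (364 nt), 20 (257 nt) and 73, the last exon with the 3′ UTR (1171 nt), were covered in all 6 SCAF IP lists, and exon 17 (195 nt) in 5. By contrast, exon 37 was covered in all 6 SCAF IP lists but also in 2 parental IP lists and 6 inputs, and exon 45 in 6, 2 and 4. All inputs held 20 TRRAP clusters and the parental IP 7, against 180 in SCAF IP, so the controls could show few exons. The next lines show 30 nt of genome sequence (GRCh38, read in the direction of the RNA) from the middle of the stretch of each exon that lay under the most SCAF IP clusters, with capitals marking the letters that the study named for its binding sites: CGG or the variant CGA, the letters CAG with C or G on either side, and CTCC or the variant CACC.
TRRAP exon 15, chr7:98910336-98910365, plus strand: cagactgtCGAagtttggtcaaaaccttgg
TRRAP exon 20, chr7:98917559-98917588, plus strand: actcaatgggtctcagacattggtcagcca
TRRAP exon 73, chr7:99012581-99012610, plus strand: aaacttattccaagctttcaaaataatctt
TRRAP exon 17, chr7:98911120-98911149, plus strand: actgccagactgtgagaatgaaagaggaga
These stretches had little in common. GC content ran from 23.3% in exon 73 to 50.0% in exon 20, and a match to the letters was found in exon 15 alone. Over exon 20, 199 nt lay under the clusters of all 6 lists, and over exon 73 158 nt did.

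Clusters at exon 15 ran into the next intron. In 4 of the 6 SCAF IP lists a cluster passed the 3′ edge of exon 15, by a median of 30 nt and by up to 80 nt. The letters at this edge are shown with the exon in capitals and the intron in lower case.
TRRAP exon 15 and intron, chr7:98910405-98910434, plus strand: GCAAAGCACCTGGTGgtaattctgctcttc
At exon 20, 2 lists passed the 5′ edge and 2 lists the 3′ edge, the latter by 2 to 3 nt, and at exon 17, 4 lists passed the 5′ edge by a median of 4.5 nt.

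Clusters of TRRAP outside exons formed 16 separate regions. One in intron 2 (98881700 to 98881888) was found in all 6 SCAF IP lists, in 2 parental IP lists and in 6 inputs, and it lay at the gene of the microRNA MIR3609 (98881650 to 98881729), which some of its clusters overlapped. A further 5 had clusters in at least 2 SCAF IP lists and in no input or parental IP list, among them a region in intron 10 (98900141 to 98900444) found in all 3 FLAG-SCAF4 IP lists. Single clusters of 1 list each lay 10237 and 34446 nt past the last exon of the canonical isoform, within the annotated gene.

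MTOR had few clusters, nearly all of them in the larger SCAF IP lists and all of its exonic ones towards the 5′ end. FLAG-SCAF4 IP held 1, 15 and 8 clusters (0.527, 2.76 and 2.36 per 10000) and FLAG-SCAF8 IP 2, 1 and 5 (0.794, 0.547 and 1.20 per 10000). The inputs of both tagged lines and the parental IP held 0, and the parental inputs held 2, 0 and 0. The 2 clusters of parental input replicate 1 were 1.60 per 10000, above every FLAG-SCAF8 IP list and FLAG-SCAF4 IP replicate 1. Taken over the 3 lists, FLAG-SCAF4 IP was at least 1.61-fold above its inputs, counting 3 clusters as the limit that 0 allows. For FLAG-SCAF8 IP against its inputs this limit was not exceeded, and no fold is given.

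The 25 exonic SCAF IP clusters of MTOR had their midpoints between 2.27% and 45.9% of the spliced isoform. They lay over 13 exons between exon 2 and exon 26, and none of exons 27 to 58 was covered in any SCAF IP list. A further 6 clusters lay in introns alone, 3 of them over 1000 nt from an exon, including a region in intron 54 (11111522 to 11111670) in 2 FLAG-SCAF4 IP lists. The controls could show few exons here, with 2 MTOR clusters in all inputs and 0 in the parental IP. Exon 13 (206 nt, 11237843 to 11238048) was the only exon that met the rule used for TRRAP, with clusters in all 6 SCAF IP lists and 1 parental input. In 3 of these lists the cluster passed the 3′ edge of the exon, by a median of 41 nt. The first line shows 30 nt from the middle of the 100 nt that all 6 lists shared, and the second the 3′ edge with the exon in capitals.
MTOR exon 13, chr1:11237902-11237931, minus strand: tcCGGgagctggccatctgcactgtgggcc
MTOR exon 13 and intron, chr1:11237828-11237857, minus strand: AAGATGCTCATCCAGgtaaccgaggtgatg
The first stretch had a GC content of 70%, the highest of the 7 stretches of exon sequence shown here.

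ATM, the kinase activated at double-strand breaks, was the least covered gene. FLAG-SCAF4 IP held 4, 5 and 1 clusters (2.11, 0.919 and 0.294 per 10000), FLAG-SCAF8 IP 2, 2 and 3 (0.794, 1.09 and 0.723 per 10000) and all 9 inputs 0. Counting 3 clusters as the limit that 0 allows, neither SCAF IP exceeded it against its own inputs, and no fold is given. The parental IP held 1 cluster in replicate 1, or 1.04 per 10000, which was within the range of both SCAF IPs. SCAF IP lists covered 8 of the 63 exons. Exon 47 (168 nt, 108326058 to 108326225) was covered in 5 SCAF IP lists and in no other list, whereas exon 32 was covered in 4 SCAF IP lists and in parental IP replicate 1. With 0 input clusters and 1 parental IP cluster in the gene, the controls could show almost no exon. A stretch of 51 nt of exon 47 was shared by the 5 lists, and its middle is shown without a match to the letters searched.
ATM exon 47, chr11:108326085-108326114, plus strand: aaacagtacaattcagttagctgtggagtc

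ATR, the kinase of replication stress, had overlapping numbers in IP and input. FLAG-SCAF4 IP held 3, 6 and 7 clusters (1.58, 1.10 and 2.06 per 10000) against 1, 1 and 1 in its inputs (0.854, 1.96 and 2.09 per 10000), and FLAG-SCAF8 IP held 3, 2 and 4 (1.19, 1.09 and 0.964 per 10000) against 1, 1 and 1 (1.09, 0.965 and 1.11 per 10000). Both pairs of ranges overlapped. All 7 input clusters of ATR, including that of parental input replicate 1, lay over exon 4, an internal exon of 878 nt and the longest exon of the isoform, and it was also covered in all 6 SCAF IP lists and in 1 parental IP list. No input list held more than 1 ATR cluster, so the inputs could show few exons. SCAF IP lists covered 10 further exons, and the 25 SCAF IP clusters were all exonic.

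Exon 14 of ATR (171 nt, 142550132 to 142550302) was covered in 5 SCAF IP lists and in no parental IP or input list. Exon 27 was covered in 4 SCAF IP lists and in no other. The middle of the 136 nt of exon 14 shared by the 5 lists held a CACC.
ATR exon 14, chr3:142550197-142550226, minus strand: aacaagatgtggctCACCagagagaaatgg

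PRKDC, which encodes the catalytic subunit of DNA-PK, held more clusters than the other 4 genes together in every list except the small one of parental IP replicate 2, and its share of the list overlapped between IP and input. FLAG-SCAF4 IP held 38, 95 and 76 clusters, or 20.01, 17.5 and 22.4 per 10000. Its inputs held 16, 10 and 12, or 13.7, 19.6 and 25.04 per 10000. FLAG-SCAF8 IP held 37, 46 and 71 clusters, or 14.7, 25.2 and 17.1 per 10000, and its inputs 15, 20 and 20, or 16.4, 19.3 and 22.2 per 10000. The ratios of means were 1.03 and 0.984 and all these ranges overlapped, as did the parental inputs (15.3 to 27.6 per 10000). The parental IP gave 18.7, 4.32 and 18.5 per 10000, the second of these from a single cluster.

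The number of TRRAP clusters was also divided by that of PRKDC in the same list. The ratio was 0.474 to 0.663 in FLAG-SCAF4 IP, 0.239 to 0.459 in FLAG-SCAF8 IP and 0.0667 to 0.286 over the 9 inputs, so that FLAG-SCAF4 IP lay above every input. FLAG-SCAF8 IP replicates 1 and 3 lay above every input too, while replicate 2 lay below 2 of the 9. In the parental IP it was 0.222, 2 and 0.333. Within FLAG-SCAF4 IP the ratio was higher in larger lists, and the part of list size in these differences was not tested.

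SCAF IP clusters covered 69 of the 86 exons of PRKDC, and 25 of these were covered in an input too. In PRKDC, 6 exons (17, 37, 68, 69, 71 and 72) met the rule used for TRRAP, and exons 17, 37, 69 and 71 were covered in all 6 SCAF IP lists and in no input or parental IP list. The last exon, 86, was covered in all 6 SCAF IP lists and all 9 inputs, and exon 15 in 6 and 7. Of the 50 regions of PRKDC clusters outside exons, 12 were in at least 2 inputs and 12 had clusters in at least 2 SCAF IP lists and in no input or parental IP list. One of the former, in intron 28, was in 6 SCAF IP lists and 8 inputs.

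**Figure D2:**
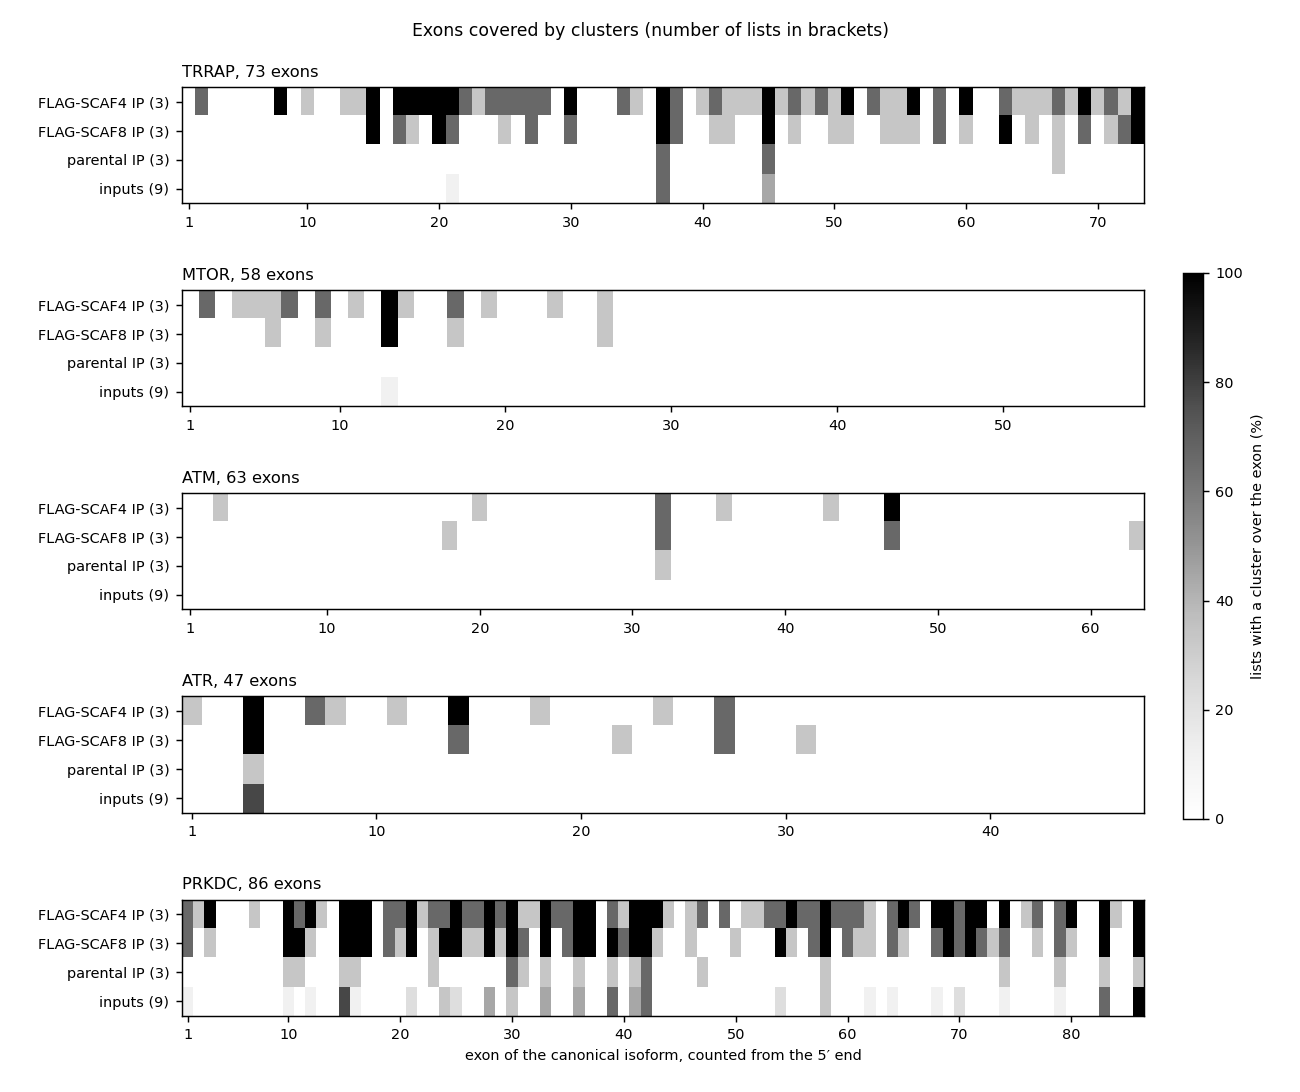
Exons of the canonical isoform of each gene from the 5′ end (x axis) against the lists of each kind (rows); shading gives the percentage of those lists with a cluster over the exon, out of 3 for each IP and 9 for the inputs. TRRAP and PRKDC are covered along their length, MTOR is covered up to exon 26 and ATR up to exon 31, and input clusters recur at a few exons such as ATR exon 4 and PRKDC exon 86.

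FLAG-SCAF4 IP lay above its own input in all lists for TRRAP, MTOR and ATM, 3 of the 5 genes, as for 28.6% of the 7000 protein-coding genes with at least 5 clusters. FLAG-SCAF8 IP did so for the same 3 genes, as for 14.4% of genes. All 6 SCAF IP lists lay above all 3 parental IP lists for 1 of the 5, MTOR, as for 15.7% of genes. Since cluster numbers chose the genes, nothing is read from these counts. Over the 6 SCAF IP lists PRKDC ranked 2nd and TRRAP 39th of 9830 genes by clusters. Per length, exonic clusters per 10000 and per kb of spliced isoform averaged 1.02 ± 0.279 in PRKDC, 0.543 ± 0.181 in TRRAP, 0.163 ± 0.0508 in ATR, 0.126 ± 0.0828 in MTOR and 0.0710 ± 0.0498 in ATM (SD, n = 6 lists), and PRKDC and TRRAP ranked 208th and 969th. Neighbours in this order differed by more than either SD from PRKDC to TRRAP and from TRRAP to ATR, but ATR and MTOR, and MTOR and ATM, differed by less than the SD of MTOR.

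Consensus regions were built from overlapping clusters of at least 2 of the 3 replicates of an IP, leaving out those that met clusters of more than 1 input or any parental IP cluster. For SCAF4 this left 83 of 120 regions, 36 in TRRAP, 37 in PRKDC, 6 in MTOR, 3 in ATR and 1 in ATM. For SCAF8 it left 35 of 67 regions, 13 in TRRAP, 18 in PRKDC, 2 in ATR and 1 each in MTOR and ATM. Of the SCAF8 regions 30 (85.7%) overlapped a SCAF4 region, and the same overlap was 36.1% of the SCAF4 regions. All 4 regions of MTOR exon 13 and ATM exon 47 overlapped between the proteins. Exons were met by 70 of the SCAF4 and 31 of the SCAF8 regions. TRRAP regions fell from 40 to 36 for SCAF4 by this filter and PRKDC regions from 68 to 37. All inputs together held 20 TRRAP and 140 PRKDC clusters, so the filter could remove fewer regions in TRRAP. The study also set aside genes with at least 1 input cluster per 10 kb, a step not applied here. PRKDC held 2.25 merged input regions per 10 kb, and TRRAP, the next highest, 0.339. No consensus region lay within 1000 nt upstream of an annotated end of a shorter isoform of its gene. TRRAP has 1 such end, MTOR 2, ATR 3, ATM 21 and PRKDC 0 in GENCODE 44. Counted were complete ends over 1000 nt before that of the canonical isoform, leaving out isoforms with retained introns. TRRAP and PRKDC held 49 and 55 regions of both proteins together and ATM 2. Few regions could thus lie near such an end, and nothing is read from this.

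The share of clusters in exons was the first measure that the choice of the genes had not used. It was 81.25%, 70.1% and 74.3% in FLAG-SCAF4 IP replicates 1 to 3 and 77.0%, 77.4% and 68.2% in FLAG-SCAF8 IP. It was 50.0%, 66.7% and 62.5% in FLAG-SCAF4 inputs and 41.2%, 69.6% and 62.5% in FLAG-SCAF8 inputs. The means were 74.7% ± 4.89 and 58.7% ± 10.9 (SD, n = 6 lists each), and they differed by 15.98 percentage points (two-sided exact permutation test over 924 splits, p = 0.00433, adjusted p = 0.0216 over the 5 tests by Benjamini-Hochberg). Only 1 input list lay above the lowest IP list. Without replicate 1 the difference was 7.19 points and did not pass (exact permutation p = 0.0571). Per the study's methods, replicate 1 was sequenced in a run with longer reads than the other replicates. Read length thus changed together with replicate number, and its part in the exonic share was not tested. In the paired form with the replicate block, which sets each IP against the input of its own number, the call was lost (exact p = 0.0312, the smallest that 6 pairs allow, adjusted p = 0.0521). It was also lost without PRKDC, which held 140 of the 169 input clusters: the difference was then 10.7 points (exact permutation p = 0.223), from lists of few clusters. The only parental IP list with at least 5 clusters, replicate 1, had 87.5% of them in exons, above all SCAF IP lists. In other multi-exon protein-coding genes the exonic share averaged 63.9% ± 4.25 in SCAF IP lists and 61.6% ± 4.94 in their inputs (n = 6 each). The difference in other genes was not tested.

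Clusters over an exon-intron junction made up 48.1% ± 5.44 of the clusters in the SCAF IP lists (n = 6, 42.2% to 56.0%) and 22.2% ± 5.42 in the inputs of the same lines (n = 6, 16.7% to 30.4%), without overlap. With at least 10 nt on each side of the junction required, the means were 30.4% ± 4.29 and 6.80% ± 5.86. The other multi-exon protein-coding genes had 31.2% ± 4.03 and 15.7% ± 0.922 over a junction, and those with at least 30 exons 40.3% ± 4.53 and 20.04% ± 1.96. In parental IP replicate 1 it was 41.7% for the 5 genes, and 12.5% with 10 nt on each side. The junction share was looked at after the data were seen and was not tested.

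**Figure D3:**
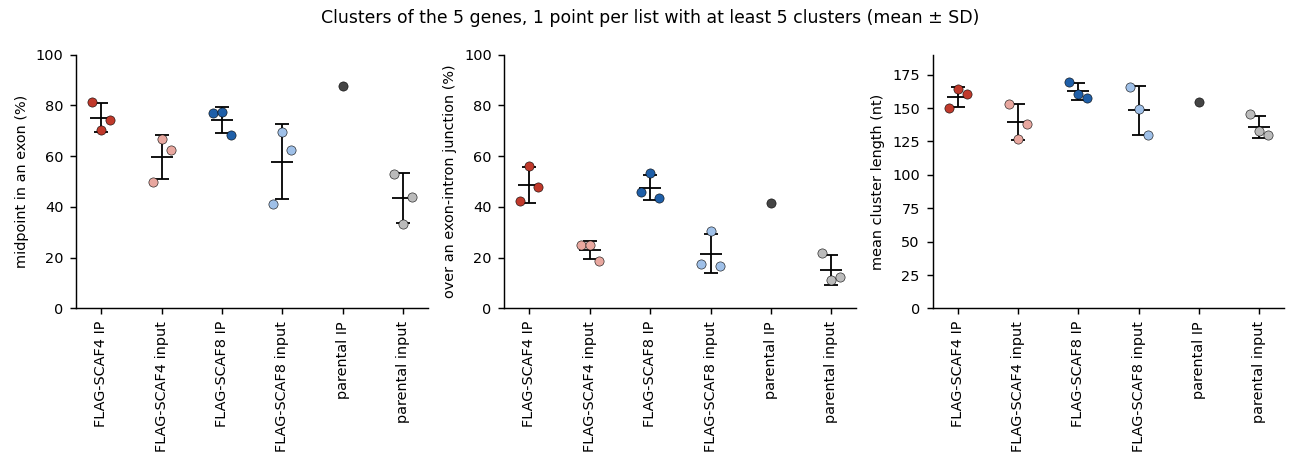
Share of clusters with the midpoint in an exon (left), share over an exon-intron junction (middle) and mean cluster length in nt (right) for the 5 genes together, for the 6 conditions (x axis); each point is 1 list with at least 5 clusters, with mean ± SD where there are 3. SCAF IP lists lie above the inputs in junction share without overlap, and in exonic share with an overlap of 1 input list.

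The 3′ edges of exons were met more often than the 5′ edges. Of the 617 SCAF IP clusters, 176 lay within an exon, 154 over the 3′ edge of an exon, 92 over its 5′ edge and 58 over a whole exon with both flanks, while 133 lay in introns alone. Of the 169 input clusters 62 lay within an exon, 20 and 10 over the 3′ and the 5′ edge, 5 over a whole exon and 72 in introns alone. Intron clusters lay at a median distance from the nearest exon of 408 nt in SCAF IP and 447.5 nt in inputs. In ATR, 21 of the 25 SCAF IP clusters lay within an exon and 3 over a junction, whereas TRRAP had 96 of 180 and PRKDC 186 of 363 over a junction.

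**Figure D4:**
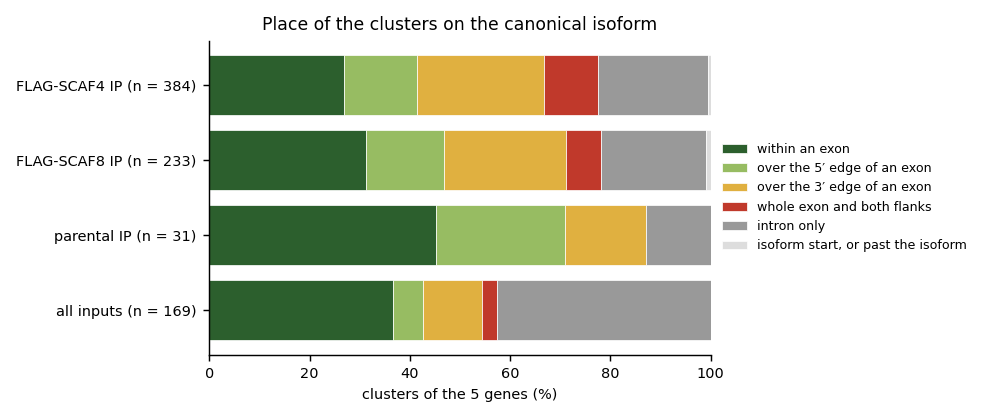
Percentage of the clusters of the 5 genes (x axis) by their place on the canonical isoform, for FLAG-SCAF4 IP, FLAG-SCAF8 IP, the parental IP and all inputs (rows, with the number of clusters). Intron clusters without exon overlap are the largest class in the inputs, and clusters over exon edges take more of both SCAF IPs.

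Compared with other multi-exon genes in the same SCAF IP lists, clusters of the 5 genes were in exons more often in 6 of 6 lists, by 10.8 percentage points (74.7% ± 4.89 against 63.9% ± 4.25, n = 6, exact sign-flip permutation test p = 0.0312, adjusted p = 0.0514). This did not pass after adjustment, and 0.0312 is the smallest p that 6 lists allow. Against other genes with at least 30 exons the difference was 3.18 points (exact p = 0.188).

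The place of exonic clusters along the isoform was compared with that in other genes. In the SCAF IP lists, 58.6% ± 2.64 of the exonic clusters were in the first 50% of the spliced isoform, against 69.0% ± 2.48 in other genes (lower in 6 of 6 lists, n = 6, exact sign-flip permutation p = 0.0312, adjusted p = 0.0514), which did not pass after adjustment. In the inputs of the same lines the shares were 65.5% ± 11.4 and 58.1% ± 1.79 (SD, n = 6), the opposite order, which was not tested. The genes differed among themselves: the first 50% held 25 of 25 exonic SCAF IP clusters in MTOR, 18 of 25 in ATR, 9 of 15 in ATM, 140 of 248 in PRKDC and 73 of 139 in TRRAP. Without PRKDC the difference from other genes was -7.89 points.

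**Figure D5:**
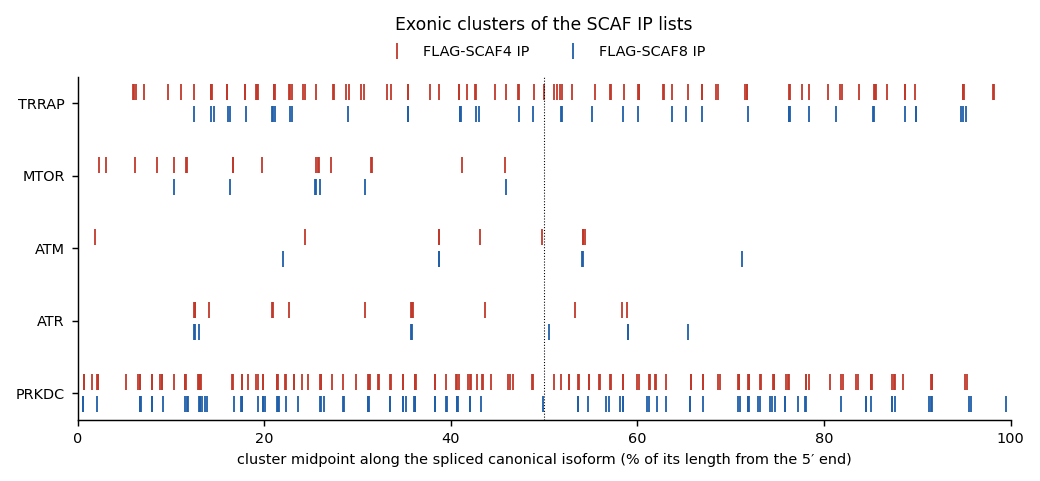
Midpoints of the exonic clusters of the SCAF IP lists along the spliced canonical isoform (x axis, percent of its length from the 5′ end) for the 5 genes; each tick is 1 cluster of 1 list (red for FLAG-SCAF4 IP, blue for FLAG-SCAF8 IP), and the dotted line marks 50%. MTOR ticks end at 45.9% and ATR ticks at 65.5%, while those of TRRAP and PRKDC reach past 98%.

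Cluster length and base composition differed less between IP and input. Clusters of the 5 genes averaged 160.3 ± 6.70 nt in SCAF IP lists and 143.9 ± 14.997 nt in the inputs of the same lines (n = 6 lists each, exact permutation p = 0.0411, adjusted p = 0.0514), which did not pass after adjustment. GC content was 47.4% ± 0.587 and 46.2% ± 2.29 (n = 6 each, exact permutation p = 0.290, adjusted p = 0.290). The genes had different compositions: over the SCAF IP lists with at least 5 clusters of the gene, mean GC content was 54.3% ± 1.22 in MTOR (SD, n = 3 lists), 51.8% ± 0.711 in TRRAP (n = 6) and 45.6% ± 0.480 in PRKDC (n = 6). ATR had 2 such lists, at 40.4% and 44.9%, and ATM 1, at 41.4%.

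The letters CGG or CGA were found in the 100 nt around the midpoint of 85.0% of the 180 TRRAP clusters in SCAF IP, 75% of those in MTOR, 64% in ATR, 53.2% in PRKDC and 35.3% in ATM, searched on the RNA strand. The same letters stood in 66.9% of the SCAF IP clusters of all other protein-coding genes. They stood in all 20 input clusters of TRRAP and in 36.4% of the 140 input clusters of PRKDC. The letters CAG with C or G on either side stood in 44.4% of the SCAF IP clusters of the 5 genes and 42.6% of those of other genes, and CUCC or the variant CACC in 48.1% and 48.0%. Clusters of several lists over 1 site share their letters, so these shares were not tested.

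The pattern of each gene over the 18 lists was set against that of 3423 protein-coding genes with at least 20 clusters. For TRRAP the most alike were ZNF142 (Pearson r = 0.77) and TRAF4 (r = 0.76), and for PRKDC BRD9 (r = 0.94) and GCN1 (r = 0.86), on log2(clusters per 10000 + 0.5) over 18 lists. For MTOR they were PFAS (r = 0.98) and SMARCC2 (r = 0.97), and for ATR GPBP1L1 (r = 0.96) and EIF3D (r = 0.96). ATM had too few clusters. Between TRRAP and PRKDC r was -0.13. All points share their list and its depth, and many are 0 in the smaller lists.

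The other genes of these pathways were counted in the same way. A gene was called bound where clusters of at least 2 replicates of an IP overlapped at a place with no parental IP cluster, which held for 29 of 40 related genes. The inputs played no part in this rule. Of the 37 related genes with a cluster 78.4% were bound, against 69.4% of all 9830 protein-coding genes with a cluster, and nothing particular to the pathways is read from this. SMG1, the kinase of nonsense-mediated decay and the other active member of the family, had 68, 42, 6 and 25 clusters in FLAG-SCAF4 IP, FLAG-SCAF8 IP, parental IP and all inputs. The means per 10000 were 6.73 in FLAG-SCAF4 IP, 5.27 in FLAG-SCAF8 IP and 3.00 in all inputs. Neither SCAF IP lay above its own inputs in all lists for SMG1. All 7 assembly factors, which help PIKK proteins to fold, were bound. FLAG-SCAF4 IP lay above its own inputs in all lists for 2 of them and FLAG-SCAF8 IP for 1. The shares over the 7000 protein-coding genes with at least 5 clusters were 28.6% and 14.4%. TELO2 was the only assembly factor for which both IPs did so. In TELO2 the SCAF IPs held 27 and 8 clusters (means of 2.18 and 0.898 per 10000) against 0 in the inputs and 1 in the parental IP.

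Of 12 genes of the TRRAP complexes 10 were bound. EP400, a remodelling ATPase of the same acetyltransferase complex, had 73, 33, 5 and 9 clusters in FLAG-SCAF4 IP, FLAG-SCAF8 IP, parental IP and all inputs. The means were 6.54 in FLAG-SCAF4 IP, 3.84 in FLAG-SCAF8 IP and 0.964 in all inputs, per 10000. For EP400 only FLAG-SCAF4 IP lay above its own inputs in all lists. Of 6 mTOR complex genes 4 were bound, among them RPTOR, which defines mTORC1. RPTOR had 50 and 83 clusters against 27 in all inputs, and 4 in the parental IP. Per 10000, RPTOR averaged 4.64 and 9.49 against 4.07. For RPTOR only FLAG-SCAF8 IP lay above its own inputs in all lists. Of the partners of ATM, MRE11 and RAD50 were bound and NBN was not, and of 5 ATR partners 3 were bound. XRCC5 and XRCC6, which encode the Ku proteins that recruit DNA-PKcs, were the only bound genes among 6 DNA-PK partners and neither lay above its own inputs in all lists of an IP. FLAG-SCAF4 IP lay above its inputs in all lists for 12 and FLAG-SCAF8 IP for 8 of the 30 related genes with at least 5 clusters, beside 28.6% and 14.4% of the 7000 protein-coding genes with as many.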

How the data were processed

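Per the labels and the study's methods, the authors trimmed reads (cutadapt, Trim Galore), aligned them to GRCh38 with Bowtie2 2.2.9, which does not align across introns, removed duplicates (Picard), joined the soluble and chromatin libraries of a replicate and called clusters with minimum numbers of reads and T to C transitions. The deposited lists give cluster coordinates and a score from the authors whose scale is not stated; the score was used only to rank clusters. The lists precede the filters of the study on input and control. The 24 chromosomes matched GRCh38.

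The members, lists and tests were chosen with earlier results of these data known. Exons were those of the MANE Select isoform. Named were all 5 genes, up to 4 exons per gene by the rule in the text, and for each gene with at least 20 clusters the 2 genes most alike. Tests were exact permutation tests over lists (Python 3.11.15, numpy 2.4.6, pandas 2.3.3), adjusted by Benjamini-Hochberg over 5 tests, and were checked on simulated data. A list with under 5 clusters in the 5 genes gave no value. The methods call the replicates biological, and no label ties them to separate cultures, so p-values measure the spread between these lists. IP and input of a line share replicate numbers, and per the labels input was taken before the IP. The deviations of equal numbers of the tagged lines correlated at 0.02 to 0.39 over 3423 genes, below 0.1 for 1 of 6 pairs.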

Additional observations from a re-analysis of the deposited data

How the results depend on the processing

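The depth behind the lists is unknown, and small lists limit most values: parental IP replicates 2 and 3 and several inputs had few clusters in these genes. Of 54 alternatives of the tests, 35 kept direction and side of the threshold, and of 39 alternatives of values without a test, 29 stayed close to the value given. Some of the 35 could not have changed. Every tested list held at least 12 clusters in these genes, so a minimum of 10 altered nothing. Without 1 replicate the sign-flip tests could not reach a p below 0.125. With only the higher-scoring clusters of each list (median score or more), differences were 8.96 points for exonic share against other genes, 23.4 nt for length, -15.5 points for the share in the first 50% and 3.08 points for GC content, and all 4 then passed, while exonic share between IP and input rose to 39.6 points. For exonic share against other genes and the first 50%, the exact sign-flip p stayed at 0.0312. Both thus crossed the threshold through the adjustment alone. TRRAP in SCAF IP against parental IP moved from 0.49 to 1.01 (log2). The exonic difference between IP and input was 7.19 to 21.1 points without 1 replicate number, the lowest without replicate 1 (exact permutation adjusted p of 0.143, with 4 lists against 4 reaching no less than 0.0286 before adjustment) and 15.98 points with the replicate block (adjusted p = 0.0521). Length differed by 19.0 nt against all 9 inputs, and passed. Leaving out MTOR, ATM or PRKDC gave 10.5, 10.3 and 17.6 points for exonic share against other genes and -12.5, -10.5 and -7.89 points for the first 50%. These crossed the threshold through the adjustment alone, since the exact p was 0.0312, the smallest possible, with every gene left out, and without TRRAP or ATR the adjusted p was 0.0521. Choosing genes after seeing the data, PRKDC alone gave 13.7 points for exonic share between IP and input (not passing) and -0.15 points for GC content, a reversed sign, and the other 4 genes gave 10.7 points (not passing) and 29.3 nt (passing). Consensus regions numbered 31 and 8 for SCAF4 and SCAF8 with 3 of 3 replicates, 46 and 17 without genes dense in input clusters (which left out PRKDC), 32 and 16 with the higher scores, and 33 to 91 and 14 to 28 without 1 replicate, the lowest without replicate 2 for SCAF4 and replicate 3 for SCAF8. SCAF IP against parental IP for PRKDC was 0.74 on the log2 scale, and -0.0216 to 1.18 without 1 replicate, the lowest without replicate 2, whose parental list held 1 PRKDC cluster. The cause of these changes was not tested.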
